A study of Mus musculus with 24 samples.

Results

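The 9 genes described here are 6 fibroblast growth factors (Fgf1, Fgf2, Fgf7, Fgf9, Fgf10 and Fgf18), the receptors Fgfr1 and Fgfr2, and hepatocyte growth factor (Hgf), out of 30827 named genes on the array. They were taken by gene symbol, with earlier results of these data known, and each had 1 probe set. RNA levels came from 24 arrays of colon fibroblasts, sorted for the podoplanin gp38 and against Epcam, CD45 and CD31. All mice carried an inducible Cre driven by the promoter of the gut epithelial gene Villin (VillinCre-ERT2) and ZsGreen, and were induced. The genotypes were Ihh and Apc wild type (WT, 7 arrays), Apc knockout with intact Ihh (ApcKO, 8 arrays) and knockout of both (IhhKO_ApcKO, 9 arrays). Ages, the inducing agent and the time after induction were not given, and the labels do not say whether each array was a separate mouse, so all p-values measure the spread between these samples. Villin drives Cre in epithelium and not in fibroblasts, so the comparisons concern how fibroblast RNA differed when the neighbouring epithelium lost Apc, or Apc and the Hedgehog ligand Ihh.

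Fibroblast growth factors are secreted proteins that bind heparan sulfate and activate receptor tyrosine kinases. In the gut, fibroblasts make Fgf7 and Fgf10, which act on the epithelial splice form of Fgfr2, and Hgf, which acts on the epithelial receptor Met. Fgf9 and Fgf18 act mainly on the mesenchymal splice forms of the receptors, so that fibroblasts can be both sources and targets of these signals. The probe sets do not tell splice forms apart.

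None of the 9 genes passed the test in any comparison between genotypes, where 0% of all genes passed between ApcKO and WT, 0.0454% between the knockouts and 0.0811% between the double knockout and WT. Among pairwise comparisons the nearest to passing was higher Fgf2 in IhhKO_ApcKO than in WT, by 0.29 (SE 0.066) log2 units or 1.22-fold (limma adjusted p = 0.11). Next was lower Fgf9 in IhhKO_ApcKO than in ApcKO, by 0.33 (SE 0.082) or 1.25-fold (limma adjusted p = 0.23). Fgfr2 was lower in IhhKO_ApcKO than in WT, 1.3-fold (limma adjusted p = 0.34), and than in ApcKO, by 0.41 (SE 0.12) or 1.33-fold (limma adjusted p = 0.37). In all 3 genes the single IhhKO_ApcKO array B9 lay apart from or at the edge of its group, on the side of the arrays with intact Ihh. The ligands that signal to the epithelium, Fgf7, Fgf10 and Hgf, and the receptor Fgfr1 differed by at most 0.18 log2 units between genotypes.

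Levels are log2 values made by RMA (background correction, quantile normalization and a summary per probe set), and differences are in log2 units from a limma model of all 24 arrays. The threshold for passing was an adjusted p under 0.05, by the method of Benjamini and Hochberg over all 30827 genes. Array medians lay between 4.96 and 5.14. The median of 5222 negative control probe sets was 4.60, and 95% of them lay below 8.087. Fgfr1 and Hgf averaged above that level, and the rest of the 9 genes below it. Fgfr2 averaged 7.958, above 94.4% of the negative controls, and Fgf2 7.21, above 89.0%. General fibroblast markers averaged 10.57 in WT, 10.53 in ApcKO and 10.48 in IhhKO_ApcKO, with podoplanin (Pdpn) at 10.9 and decorin (Dcn) at 12.5 over all arrays. The gated Ptprc, which encodes CD45, averaged 2.95 and Pecam1, which encodes CD31, 5.72. Over whole lists, 9 leukocyte markers averaged 5.45 to 5.56 by group, with Cd68 highest at 9.10, and 6 markers of blood endothelium 5.66 to 5.73, with Tek highest at 8.42. The 4 measured markers of lymphatic endothelium, which also carries podoplanin, averaged 4.79 to 4.91. Epithelial markers, of which Epcam was gated against, varied from 5.46 to 8.17 in their mean per array. Genes typical of other cells were measured too, with the epithelial gene Car1 at a mean of 9.36 and Acta2, shared by smooth muscle and myofibroblasts, at 9.44. In sorted bulk cells, fewer cells of a type and less RNA per cell cannot be told apart.

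The sample code on each array is a letter with a digit, and what the letter stands for is not stated. It went almost entirely with genotype: A for WT, B for ApcKO and C for IhhKO_ApcKO, except that ApcKO A9 and IhhKO_ApcKO B9 took the letter of the group before. On B9 the Hedgehog target Gli1 was at 7.99, against 6.64 to 7.05 on the other 8 arrays labelled IhhKO_ApcKO and 7.98 to 8.47 on the 15 arrays with intact Ihh, so that the array labelled IhhKO_ApcKO B9 goes against its label. Results that rest on it are therefore given with and without it.

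**Figure D1:**
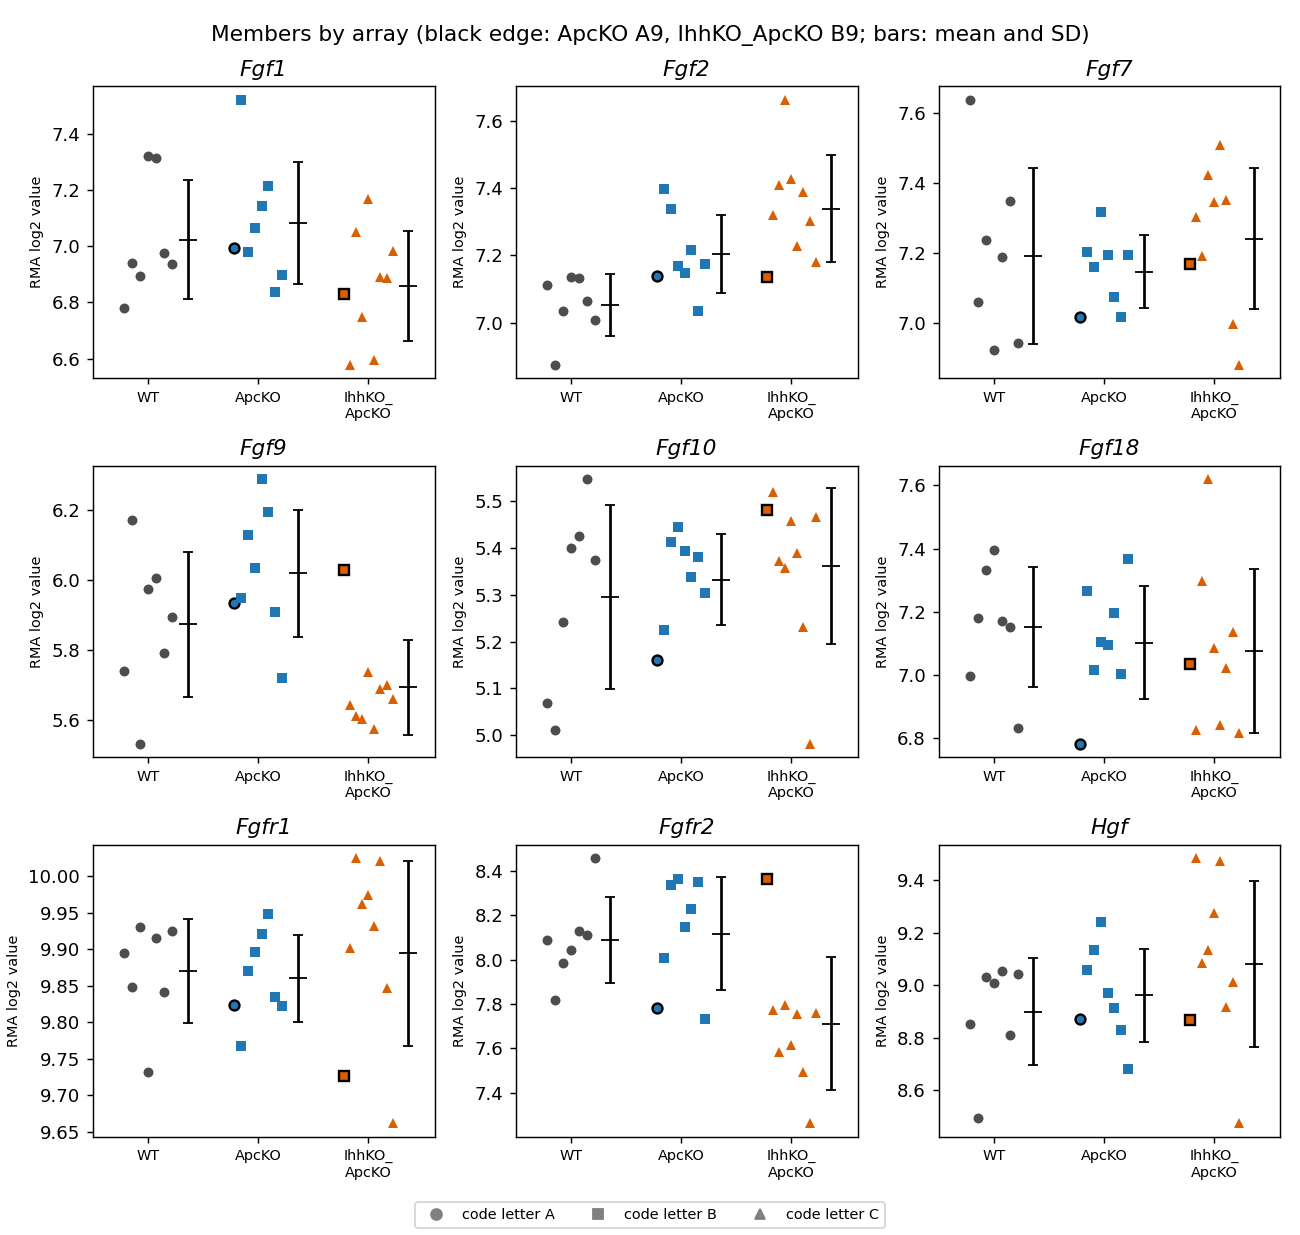
Each panel plots 1 gene, with the RMA log2 value of every array (vertical axis) by genotype (horizontal axis); symbols show the code letter, a black edge marks ApcKO A9 and IhhKO_ApcKO B9, and bars are the group mean and SD of 7, 8 and 9 arrays. Fgf9 and Fgfr2 are low on the 8 IhhKO_ApcKO arrays with the letter C and high on B9. All 8 still lie within the range of the 15 arrays with intact Ihh in Fgf9, and 4 of them lie below that range in Fgfr2. The groups also overlap in Fgf1, Fgf7, Fgf10, Fgf18, Fgfr1 and Hgf, and the knockouts overlap in Fgf2.

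Fgf7 (Entrez gene 14178) and Fgf10, also called keratinocyte growth factors for their action on epithelium, showed no difference between genotypes that exceeded the spread of the arrays. Fgf7 ran from 6.92 to 7.64 in WT with a median of 7.19, from 7.02 to 7.32 in ApcKO with a median of 7.18, and from 6.88 to 7.51 in IhhKO_ApcKO with a median of 7.30. The 3 groups overlapped almost completely, and the ApcKO arrays were the least spread (SD 0.105, against 0.252 in WT and 0.203 in IhhKO_ApcKO). The Fgf7 difference was -0.044 (SE 0.096, limma adjusted p = 0.99) for ApcKO minus WT and 0.094 (SE 0.090, limma adjusted p = 1.0) for IhhKO_ApcKO minus ApcKO. Its 95% intervals ran from -0.242 to 0.153 and from -0.0912 to 0.28, so a 1.21-fold higher level in the double knockout lies at the edge of what these arrays allow.

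Fgf10 (Entrez gene 14165), required for outgrowth of several epithelial organs, was dim: its mean of 5.33 lay above only 63.5% of the negative controls. It ran from 5.01 to 5.55 in WT, from 5.16 to 5.45 in ApcKO and from 4.98 to 5.52 in IhhKO_ApcKO, with medians of 5.38, 5.36 and 5.39. These medians differed by less than the SD of any group, the smallest of which was 0.0978. The Fgf10 differences were 0.037 (SE 0.080) for ApcKO minus WT and 0.029 (SE 0.075) for IhhKO_ApcKO minus ApcKO, with limma adjusted p values of 0.99 and 1.0.

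Hgf (Entrez gene 15234), the ligand of Met and a motility and survival factor for epithelium, was clearly above background, with a mean of 8.99 that exceeded 97.7% of the negative controls. It ran from 8.49 to 9.06 in WT with a median of 9.01, from 8.68 to 9.24 in ApcKO with a median of 8.94, and from 8.47 to 9.48 in IhhKO_ApcKO with a median of 9.09. The double knockout held both the lowest and the highest array, C9 and C1, and its SD of 0.317 was the widest of the 3. In IhhKO_ApcKO 5 of 9 arrays lay above every WT array, but the difference of 0.18 (SE 0.12, 95% interval -0.0587 to 0.422) did not pass (limma adjusted p = 0.78). The Hgf difference was 0.063 (SE 0.12) for ApcKO minus WT and 0.12 (SE 0.11) for IhhKO_ApcKO minus ApcKO, with limma adjusted p values of 0.98 and 1.0.

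Fgf18 (Entrez gene 14172), a ligand of the FGF8 subfamily that is active in skeletal and lung mesenchyme, did not pass either. It ran from 6.83 to 7.40 in WT, from 6.78 to 7.37 in ApcKO and from 6.82 to 7.62 in IhhKO_ApcKO, with medians of 7.17, 7.10 and 7.04. The ranges nearly coincided, with the highest value on IhhKO_ApcKO C3 and the lowest on ApcKO A9. The Fgf18 differences were -0.049 (SE 0.11), -0.028 (SE 0.10) and -0.077 (SE 0.10) for ApcKO over WT, for the double knockout over ApcKO and for the double knockout over WT.

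Fgf9 (Entrez gene 14180), which in the developing mouse lung is made by epithelium and mesothelium and acts on mesenchyme, was the ligand with the smallest p in the comparison of both knockouts. It was dim, with a mean of 5.85 that exceeded 72.4% of the negative controls. It ran from 5.53 to 6.17 in WT with a median of 5.89, from 5.72 to 6.29 in ApcKO with a median of 5.99, and from 5.57 to 6.03 in IhhKO_ApcKO with a median of 5.66. The 8 IhhKO_ApcKO arrays with the letter C lay close together, at 5.65 ± 0.055 (SD, n = 8), and 7 of them were below every ApcKO array, while B9 held the 6.03. All 8 nevertheless lay within the range of the 15 arrays with intact Ihh, since WT A3 was lower still at 5.53.

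The Fgf9 difference was -0.33 (SE 0.082, 95% interval -0.494 to -0.157) for IhhKO_ApcKO minus ApcKO, and the limma adjusted p was 0.23. For ApcKO minus WT it was 0.15 (SE 0.087, limma adjusted p = 0.97), with 7 of 8 ApcKO arrays above the WT mean. For IhhKO_ApcKO minus WT it was -0.18 (SE 0.085, limma adjusted p = 0.64). Without B9 the first of these was -0.37 (SE 0.078, limma adjusted p = 0.051). The 5 measured mesothelial markers averaged 5.83 in WT, 5.60 in ApcKO and 5.71 in IhhKO_ApcKO, with B9 highest of its group at 6.27. Epithelial markers averaged 6.71, 7.24 and 6.94 in the same order, and with their mean as a covariate the Fgf9 difference between the knockouts was -0.33 (limma adjusted p = 0.20).

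Fgf1 (Entrez gene 14164) and Fgf2 (Entrez gene 14173) are the classical acidic and basic fibroblast growth factors, which leave cells without a signal peptide and bind strongly to matrix heparan sulfate. Fgf1 ran from 6.78 to 7.32 in WT with a median of 6.94, from 6.84 to 7.52 in ApcKO with a median of 7.03, and from 6.58 to 7.17 in IhhKO_ApcKO with a median of 6.89. The lowest 3 arrays of all, C1, C5 and C3, were double knockouts, and B9 at 6.83 also lay below every ApcKO array (lowest 6.84), while the other 5 lay within the ranges of both other groups. The Fgf1 difference was -0.22 (SE 0.096, 95% interval -0.421 to -0.0263) for IhhKO_ApcKO minus ApcKO and did not pass (limma adjusted p = 0.92). It was 0.059 (SE 0.10) for ApcKO minus WT and -0.17 (SE 0.10) for IhhKO_ApcKO minus WT.

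Fgf2 differences were positive in all 3 pairwise comparisons. It ran from 6.88 to 7.13 in WT with a median of 7.06, from 7.04 to 7.40 in ApcKO with a median of 7.17, and from 7.13 to 7.66 in IhhKO_ApcKO with a median of 7.32. Of the ApcKO arrays 7 of 8, and of the IhhKO_ApcKO arrays 8 of 9, lay above every WT array, with B7 and B9 as the exceptions, while the knockouts overlapped each other. The Fgf2 difference was 0.15 (SE 0.067, limma adjusted p = 0.97) for ApcKO minus WT and 0.14 (SE 0.063, limma adjusted p = 0.98) for IhhKO_ApcKO minus ApcKO. For IhhKO_ApcKO minus WT it was 0.29 (SE 0.066, 95% interval 0.152 to 0.423, limma adjusted p = 0.11), with 9 of 9 arrays above the WT mean. Without B9 it was 0.31 (SE 0.065) and passed, at a limma adjusted p of 0.039. RefSeq places an antisense gene, Fgf2os, partly over Fgf2. Its own probe set was at 3.48, under the negative control median, and differed by -0.18 (SE 0.094) for IhhKO_ApcKO minus WT.

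Fgfr1 (Entrez gene 14182), the main receptor of mesenchymal cells for these factors, was the steadiest of the 9 genes, with a pooled SD within groups of 0.0936. It ran from 9.73 to 9.93 in WT, from 9.77 to 9.95 in ApcKO and from 9.66 to 10.02 in IhhKO_ApcKO, with medians of 9.90, 9.85 and 9.93. Both the lowest array, C9, and the highest, C2, were double knockouts. The Fgfr1 differences were -0.0094 (SE 0.053) for ApcKO minus WT, 0.034 (SE 0.050) for IhhKO_ApcKO minus ApcKO and 0.025 (SE 0.052) for IhhKO_ApcKO minus WT. The 95% interval of the second, -0.069 to 0.137, reaches up to 1.10-fold higher in the double knockout.

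Fgfr2 (Entrez gene 14183) encodes the receptor whose epithelial splice form binds Fgf7 and Fgf10 and whose mesenchymal form binds Fgf9 and Fgf18. It had the largest difference of the 9 genes. It ran from 7.82 to 8.46 in WT with a median of 8.09, from 7.73 to 8.36 in ApcKO with a median of 8.19, and from 7.26 to 8.37 in IhhKO_ApcKO with a median of 7.75. The 8 double knockouts with the letter C lay at 7.26 to 7.80, below every WT array, and 4 of them below all 15 arrays with intact Ihh. B9 at 8.37 lay above every ApcKO array, and the ApcKO arrays A9 and B8, at 7.78 and 7.73, lay within the range of the letter C arrays.

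The Fgfr2 difference was -0.41 (SE 0.12, 95% interval -0.649 to -0.165) for IhhKO_ApcKO minus ApcKO and -0.38 (SE 0.12, 95% interval -0.63 to -0.128) for IhhKO_ApcKO minus WT. Neither passed, with limma adjusted p values of 0.37 and 0.34. Against the mean of both groups with intact Ihh it was -0.39 (SE 0.10, limma adjusted p = 0.14, below that mean in 8 of 9 arrays). For ApcKO minus WT it was 0.028 (SE 0.13, limma adjusted p = 0.99). Without B9 the difference between the knockouts was -0.49 (SE 0.10) with a limma adjusted p of 0.048, and that against both groups was -0.475 (SE 0.089) with a limma adjusted p of 0.011. Against WT it was -0.46 (SE 0.10) and still did not pass (limma adjusted p = 0.069). Within the letter B, where B9 stands alone against 7 ApcKO arrays, the Fgfr2 difference was 0.20 (SE 0.21).

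**Figure D2:**
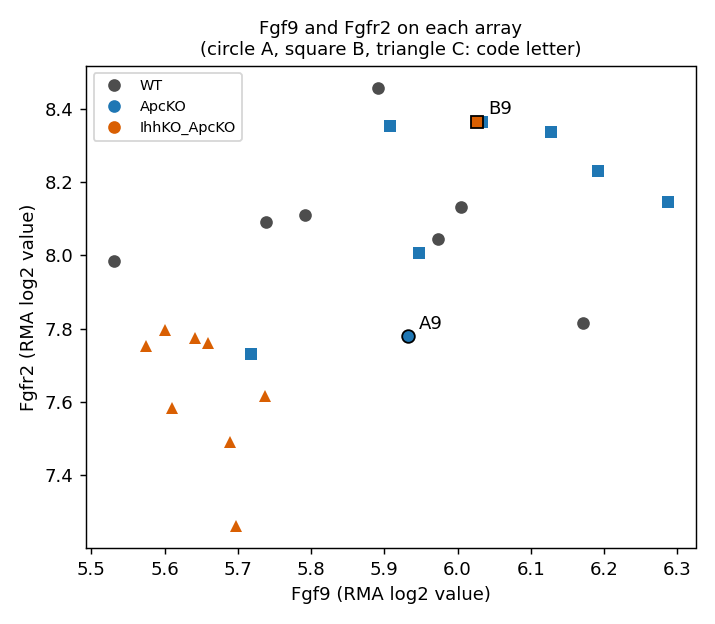
Each point is 1 array, placed by its Fgf9 (horizontal axis) and Fgfr2 (vertical axis) RMA log2 value, with colour for genotype, shape for code letter and a black edge on A9 and B9. The 8 IhhKO_ApcKO arrays with the letter C lie at the lower left, with Fgf9 up to 5.74 and Fgfr2 up to 7.80. ApcKO B8 lies there too, at 5.72 and 7.73, and WT A3 has the lowest Fgf9, 5.53. B9 lies beside the ApcKO arrays at 6.03 and 8.37.

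The stretch of DNA just before the start of Fgfr2 is shown because this receptor had the largest difference, and that of Fgf10 because this ligand of Fgfr2 was the member whose values went most closely with it across arrays. Within genotypes the Pearson correlation of Fgf10 and Fgfr2 was 0.63 over 24 arrays that share normalization and RNA composition, and it is given as a description. Both sequences are the 250 bases before the start from RefSeq on GRCm38.p6, for Fgfr2 at chr7:130266809-130267058 on the minus strand and for Fgf10 at chr13:118714449-118714698 on the plus strand. Capitals mark the GC box GGGCGG, searched on both strands.
Fgfr2: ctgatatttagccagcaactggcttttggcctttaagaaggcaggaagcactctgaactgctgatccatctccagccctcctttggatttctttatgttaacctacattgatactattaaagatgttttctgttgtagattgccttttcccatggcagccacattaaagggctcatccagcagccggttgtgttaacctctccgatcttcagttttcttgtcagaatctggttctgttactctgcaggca
Fgf10: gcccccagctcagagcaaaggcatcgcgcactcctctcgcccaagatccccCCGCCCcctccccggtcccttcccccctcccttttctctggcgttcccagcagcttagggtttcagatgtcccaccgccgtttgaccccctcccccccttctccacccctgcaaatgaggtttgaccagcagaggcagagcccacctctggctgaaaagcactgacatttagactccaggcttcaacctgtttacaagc
The GC box was in the windows of 3 of the 7 members found in the table (Fgf2, Fgf10 and Fgf18), and in 32.7% of all 32851 windows of this length. The binding consensus of the Hedgehog factor Gli1, TGGGTGGTC, was in none of the 8 member windows on either strand and in 0.225% of all windows, so an exact match in any given window was rare.

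By number, 0 of 9 members passed in ApcKO minus WT, where 0% of the 30827 genes did, and 1 had an unadjusted limma p under 0.05, against 4.41% of all genes. In IhhKO_ApcKO minus ApcKO 0 passed, where 0.0454% of all genes did, and 4 (Fgf1, Fgf2, Fgf9 and Fgfr2) had an unadjusted limma p under 0.05, against 4.94% of all genes. In IhhKO_ApcKO minus WT 0 passed, where 0.0811% of all genes did, and 3 (Fgf2, Fgf9 and Fgfr2) had an unadjusted limma p under 0.05, against 7.62%. Against the mean of WT and ApcKO 0 passed, where 0.227% of all genes did, and 4 had an unadjusted limma p under 0.05, against 7.01%. These comparisons share arrays and are not independent of each other, and the members were chosen with earlier results of these data known. The members did not shift one way: 6 differences were positive and 3 negative for ApcKO minus WT, where 39.4% of all genes were positive. For IhhKO_ApcKO minus ApcKO they were 5 and 4, where 56.6% of all genes were positive. The median difference was 0.037 in the first, beside -0.021 over all genes, and 0.029 in the second, beside 0.011.

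Without B9, 1 member passed in each comparison of the double knockout: Fgfr2 against ApcKO, where 0.133% of all genes passed, Fgf2 against WT, where 0.217% did, and Fgfr2 against the mean of both, where 0.386% did. With array weights, which down-weight arrays far from their group, Fgf9 (-0.35, limma adjusted p = 0.038) and Fgfr2 (-0.49, limma adjusted p = 0.037) passed between the knockouts, where 0.211% of all genes did. When the code letter entered the model as a block, the difference between the knockouts was -0.0035 (SE 0.17) for Fgf9 and turned to -0.077 (SE 0.14) for Fgf2. Code letter and genotype cannot be told apart except through A9 and B9.

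**Figure D3:**
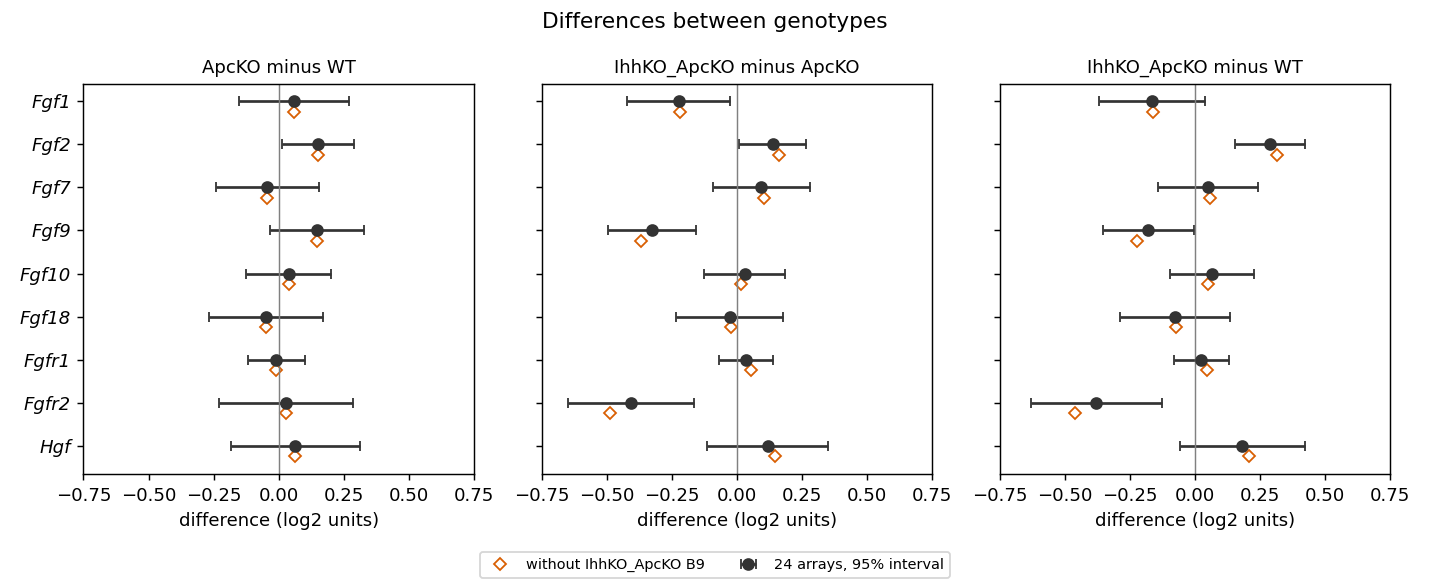
Differences between genotypes in log2 units (horizontal axis) for each of the 9 genes, with filled points and bars for the limma estimate and its 95% interval from 24 arrays, and open diamonds for the estimate without IhhKO_ApcKO B9. Fgf9 and Fgfr2 lie left of 0 in IhhKO_ApcKO minus ApcKO, at -0.33 and -0.41, and Fgf2 right of 0 in IhhKO_ApcKO minus WT, at 0.29.

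Several lists of cell markers differed between the knockouts. Of 16 epithelial markers, 15 had a lower mean in IhhKO_ApcKO than in ApcKO, with a median difference of -0.22. Both measured markers of interstitial cells of Cajal were also lower, with a median of -0.18. Of 9 leukocyte markers, 8 were higher, with a median of 0.079. In these 3 lists 0 markers had an unadjusted limma p under 0.05. All 6 measured smooth muscle markers had a lower mean in IhhKO_ApcKO than in ApcKO, with a median difference of -0.38 beside 0.011 over all genes, and a list mean of 8.12 (SD 0.17) over the 8 ApcKO arrays against 7.75 (SD 0.26) over the 9 double knockouts. All 6 measured markers of subepithelial PDGFRA-high fibroblasts were also below their ApcKO means, with a median difference of -0.15, while CD34-positive fibroblast markers averaged 8.65 and 8.62. B9 had the highest mean of its group in the smooth muscle list (8.13) and in the subepithelial list (7.97). The same held for the lists of mesothelium (6.27), interstitial cells of Cajal (6.49) and lymphatic endothelium (4.94). Without B9 the mean of the double knockouts was 7.70 for smooth muscle and 7.59 for subepithelial markers. None of these markers passed singly between the knockouts. All 6 smooth muscle and 2 of 6 subepithelial markers had an unadjusted limma p under 0.05, as did 4.94% of all genes. Against the mean of WT and ApcKO, 1 of 6 subepithelial markers passed, lower in the double knockout, and 0 of 6 smooth muscle markers did, where 0.227% of all genes passed. The part of the smooth muscle and subepithelial markers in the Fgf9 and Fgfr2 differences was not tested.

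Epithelial RNA was set against each of the 9 genes after the genotype means were removed. The settings were 24 arrays, 100000 permutations within genotypes and two-sided p-values adjusted over the 9 relations. The epithelial mean was lowest on the code digit 3 in each genotype (A3 5.831, B3 6.145, C3 5.458), while on digit 8 it was 6.55 (A8) and 8.029 (B8). The permutations took no account of the digit, so their p-values do not allow for anything that arrays of the same digit share. Fgfr1 was lower where epithelial markers were higher, with a Pearson r of -0.56 (permutation p = 0.0092, adjusted 0.083) and a Spearman rho of -0.68 (permutation p = 0.00079, adjusted 0.0071). Without the 2 arrays farthest from the median of the markers, r was -0.44. By genotype r was 0.031 in WT, -0.77 in ApcKO and -0.71 in IhhKO_ApcKO. The difference in slope between genotypes was not tested. Hgf had r = -0.49 (permutation p = 0.028, adjusted 0.13) and rho = -0.52 (permutation p = 0.015, adjusted 0.068), with r = -0.40 without those 2 arrays, and did not pass. For Fgfr2, which epithelium also expresses, r was -0.17 (permutation p = 0.48, adjusted 0.72) and rho -0.18 (permutation p = 0.42, adjusted 0.59). The relations differed in size between genotypes, as a description of 7 to 9 arrays each. For Fgfr2 r was 0.30 in WT, -0.72 in ApcKO and -0.00096 in IhhKO_ApcKO, for Fgf9 -0.0015, -0.76 and 0.38, and for Fgf10 0.45, -0.78 and -0.19. For Fgf2 it was 0.43, -0.081 and -0.81, for Fgf18 -0.37, 0.0046 and -0.72, and for Fgf7 0.55, -0.56 and -0.69. The 2 ApcKO arrays with low Fgfr2, A9 and B8, had the highest epithelial means of that group, 8.01 and 8.03. The part of epithelial RNA in the spread of these genes was not tested further. The other 6 genes had r between -0.45 and -0.020, and none passed.

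**Figure D4:**
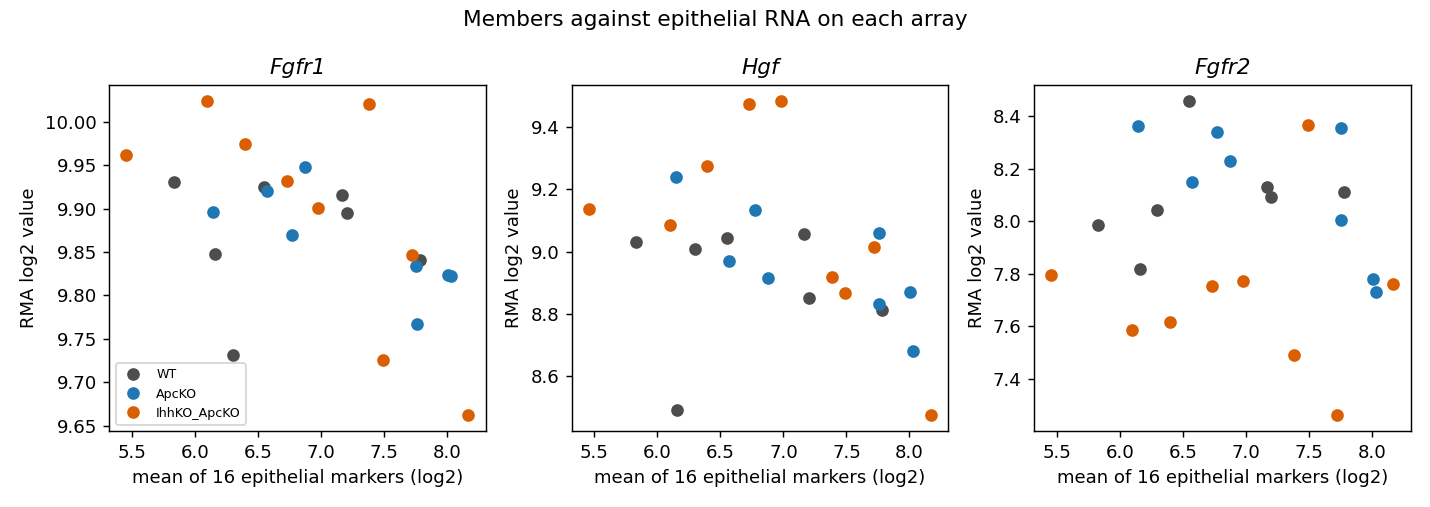
RMA log2 values of Fgfr1, Hgf and Fgfr2 (vertical axes) against the mean of 16 epithelial markers (horizontal axes, log2) on each of 24 arrays, coloured by genotype. Fgfr1 and Hgf are lowest on the IhhKO_ApcKO array with the highest epithelial mean, 8.17. After the genotype means were removed, r over the 24 arrays is -0.56 for Fgfr1, -0.49 for Hgf and -0.17 for Fgfr2. Within ApcKO alone, Fgfr2 has r = -0.72.

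Among the other genes of both pathways, 47 of 50 had a named probe set, and 0 passed in any of the 4 comparisons by limma. An unadjusted limma p under 0.05 was found for 2 of 47 in ApcKO minus WT (4.41% of all genes), for 4 between the knockouts (4.94%), for 3 against WT (7.62%) and for 4 against the mean of WT and ApcKO (7.01%). Between the knockouts 26 had a positive and 21 a negative difference, where 56.6% of all genes were positive. The median was 0.0088, beside 0.011 over all genes. The feedback and target genes of FGF signalling, such as the Sproutys, Spreds, Dusp6, Etv4 and Etv5, had 6 positive and 5 negative differences, with a median of 0.032. Spry2, a Sprouty that dampens receptor tyrosine kinase signalling, averaged 8.47 (SD 0.21) in the 7 WT, 8.43 (SD 0.21) in the 8 ApcKO and 8.71 (SD 0.17) in the 9 IhhKO_ApcKO arrays, a difference of 0.28 (SE 0.092, limma adjusted p = 0.54) between the knockouts. Flrt2, a membrane protein whose family binds FGF receptors, averaged 7.71 (SD 0.23), 7.57 (SD 0.13) and 7.22 (SD 0.41) in the same order. The Flrt2 difference was -0.35 (SE 0.13, limma adjusted p = 0.79) between the knockouts and -0.48 (SE 0.14, limma adjusted p = 0.24) for IhhKO_ApcKO minus WT. Klb, the co-receptor of endocrine FGFs, was below the negative control median, at 3.62 in ApcKO and 3.78 with both genes lost. Fgfbp1, a carrier that releases FGFs from matrix, differed by 0.20 (SE 0.095) for IhhKO_ApcKO minus WT.

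In ApcKO minus WT the smallest p values of the other pathway genes belonged to the endocrine Fgf21 at -0.24 (SE 0.080), to Hpn, a protease that activates pro-Hgf, at -0.12 (SE 0.060), and to Plau, the urokinase, at -0.21 (SE 0.11), with a limma adjusted p of 0.97 for each. The group of the Hgf receptor, its activators and inhibitors had 5 positive and 5 negative differences in this comparison (39.4% of all genes positive). Between the knockouts it had 3 and 7 (56.6% of all genes positive). Fgf12, Fgf20 and Frs2 had no probe set with a single gene name and were not analysed here.

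For each member, the 2 genes with the most similar values were sought among 15405 genes above the median gene, by the Pearson correlation over 24 arrays after the genotype means were removed. For Fgfr2 they were Adamdec1 (r = 0.84) and the chemerin gene Rarres2 (r = 0.79), for Hgf Gask1b and Elmo2 (r = 0.88 for both), and for Fgf18 Ptprj (r = 0.84) and Plxdc2 (r = 0.79). For Fgf9 they were Mmp28 (r = 0.78) and Bbs12 (r = 0.71), for Fgf10 Adap2 (r = 0.77) and Adam23 (r = 0.73), and for Fgf7 Man1a (r = 0.78) and Dhps (r = 0.74). For Fgf2 they were Hsd17b7 (r = 0.80) and the transcribed pseudogene Ndufa11b (r = 0.79), for Fgfr1 1700029I15Rik and Sox5 (r = 0.79 for both), and for Fgf1 Lrrc8c (r = 0.69) and Armcx2 (r = 0.68). These are the highest of many values and describe these arrays only. Among the members themselves the highest correlations were those of Fgf10 with Fgfr2 (0.63) and of Fgf2 with Fgf18 (0.58), and the lowest that of Fgf1 with Fgf7 (-0.30).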

How the data were processed

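RNA from 24 sorted fibroblast samples was hybridized to GeneChip Mouse Transcriptome Array 1.0 arrays, 1 array a sample. The authors deposited 1 table of log2 values, made with RMA per the submitters' processing notes. The RMA version and the array's genome build are not stated in the labels or the table. Probe sets are therefore given no position, and the promoter windows are RefSeq's own. Precision is limited by the number of arrays. The table held 72688 probe sets and 0 columns without a sample. Of 65956 transcript clusters, 31388 had 1 gene, 1362 had several and 33206 had no gene name here. The brightest probe set stood for each gene, with no filter on dim genes, which gave 30827 genes. No 2 arrays were identical.

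Genotypes were compared with limma 3.58.1 in R 4.3.3 (lmFit, eBayes, Benjamini-Hochberg adjustment), with all 24 arrays in 1 model. It was tested on simulated data with 100 genes changed by 0.5 and 100 by 1 log2 units, and recovered 83%, 87% and 87% of the first and 100%, 100% and 97% of the second for ApcKO over WT, the double knockout over ApcKO and the double knockout over WT, at 30827 genes drawn independently. Sample codes share digits across groups, and the labels do not say what the digit means, so the model has no block for it.

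The members and gene lists were chosen with earlier results of these data known. Named genes were the 9 members, the 3 other pathway genes with the smallest p in each comparison and any that passed, and the 2 genes most correlated with each member. Alternatives were the digit as a replicate block (chosen after seeing the data), aligned array medians, a filter on dim genes, array weights, eBayes with trend and robust, the code letter as a block, the epithelial mean as a covariate, the mean over probe sets, only the groups compared, and leaving out each array. The background share for each comparison is the percentage of all genes that passed.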

Additional observations from a re-analysis of the deposited data

Results flagged for a closer look

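Of 27 gene and genotype groups, 9 genes in 3 genotypes, 2 held an array whose gap to its nearest neighbour passed Dixon's 95% critical value, where chance gives about 1 in 20. Both were the IhhKO_ApcKO array B9. Fgf9 was at 6.03 on B9, with the nearest other array of its group at 5.74 and a gap of 0.639 of the group's range. Fgfr2 was at 8.37 on B9, with the nearest at 7.80 and a gap of 0.515 of the range. On the same array Gli1, Ptch1 and Hhip were at 7.99, 9.53 and 8.96, above their ranges on the other 8 arrays (highest 7.05, 8.52 and 8.14). In these Hedgehog genes B9 lay within the range of the 15 arrays with intact Ihh, and the other 8 lay below it. B9 lay within that range in Fgf9 and Fgfr2 too. There the range does not set B9 apart as clearly, since the other 8 all lay within it in Fgf9 and only 4 lay below it in Fgfr2.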

How the results depend on the processing

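Over 33 alternatives (9 settings and 24 single arrays left out), 1130 of 1175 recomputed member differences kept their sign and their side of the threshold, 39 changed sign and 6 passed where they had not. No member passed in ApcKO minus WT under any of them. The count of members called was 0 with all arrays, 2 with array weights between the knockouts and 1 against the mean of WT and ApcKO (Fgfr2, -0.46), and 0 to 1 when single arrays were left out, the 1 being without B9 in each case. Fgf10, below the median gene, has no value under the filter on dim genes.

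The count of all genes called for IhhKO_ApcKO minus ApcKO was 14, and it was 8 with aligned medians, 23 with the filter, 65 with array weights, 53 with the letter block (0 shared) and 8 to 41 without single arrays. For IhhKO_ApcKO minus WT it was 25, then 16 with aligned medians, 45 with array weights, 84 with the letter block (0 shared), 7 with only these groups, and 12 to 67. Against the mean of both it was 70, then 34 with aligned medians, 119 with array weights and 43 to 119. For ApcKO minus WT it was 0, and 113 with the letter block. Leaving out a single array moved a count widely: upward without A9 (25, between the knockouts) and B9, and downward, to no less than 8, 12 and 43 in the 3 comparisons, without B4, B5, C1, C6 or C7 in the first, A1, A4, A5, A6, A8, C4, C6 or C7 in the second, and A6, C1, C3, C4, C6, C7 or C9 in the third. The cause was not tested.

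Arrays of different genotypes with the same code digit had correlated deviations from their group means, with a median of 0.13 over 20 pairs. The median was -0.023 over 171 pairs of different digits. Of the pairs with the same digit, 12 of 20 exceeded 0.1, and the lowest was -0.06. Among the 24 arrays, 5 correlated best with an array of their own digit. With the digit as a replicate block, chosen after seeing the data, 0 members passed in each comparison. For IhhKO_ApcKO minus ApcKO Fgf9 was -0.35 (limma adjusted p = 0.17) and Fgfr2 -0.41 (limma adjusted p = 0.51), and for IhhKO_ApcKO minus WT Fgf2 was 0.34 (limma adjusted p = 0.089). All genes called were 0 for ApcKO minus WT, 16 between the knockouts, 14 against WT and 73 against the mean of both, and for ApcKO minus WT Fgf7 turned to 0.034 and Fgfr1 to 0.028.

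The letter block turned 19 signs, each resting on A9, B9 or both. For ApcKO minus WT it gave Fgf1 -0.028, Fgf10 -0.13, Fgfr2 -0.31 and Hgf -0.029. For IhhKO_ApcKO minus ApcKO it gave Fgf2 -0.077, Fgfr1 -0.14, Fgfr2 0.20 and Hgf -0.11. For IhhKO_ApcKO minus WT it gave Fgf7 -0.17, Fgf9 0.056, Fgf10 -0.010, Fgfr1 -0.19 and Hgf -0.14. Against the mean of both it gave Fgf2 -0.033, Fgf7 -0.084, Fgf9 0.026, Fgfr1 -0.16, Fgfr2 0.044 and Hgf -0.12. For ApcKO minus WT, Fgf18 was 0.017 and Fgfr1 0.026 with the epithelial covariate, and Fgfr1 was 0.017 with aligned medians. Without single arrays the ranges of ApcKO minus WT were -0.0042 to 0.11 for Fgf1, -0.089 to 0.030 for Fgf7, -0.010 to 0.079 for Fgf10, -0.032 to 0.0039 for Fgfr1, -0.018 to 0.089 for Fgfr2 and -0.0047 to 0.10 for Hgf, and that of Fgf18 between the knockouts was -0.096 to 0.0096. All these differences had failed the test with all arrays, and dim Fgf9 and Fgf10 are the most limited by signal over background.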
